A study of Astyanax mexicanus with 12 samples.

Results

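The genes described here carry out the making of steroid hormones in the ovary of the fish Astyanax mexicanus. They were chosen by symbol from the deposited gene table and number 7 of its 27420 genes: star, tspo, cyp11a1.1, cyp17a1, cyp19a1a, hsd17b12a and hsd17b12b. Of these, 6 had enough reads to enter the test across genes, which covered 14627 genes, and star did not. A. mexicanus has river-dwelling surface fish and blind cave populations, of which Tinaja is one. RNA was sequenced from whole right ovaries of wild-type (WT) females at about 660 days after fertilization, in 4 groups of 3 libraries: surface fish that were non-treated (control), starved surface fish, non-treated Tinaja cavefish and starved Tinaja cavefish. The length of starvation was not given in the sources used here. The labels describe the libraries of a group as separate samples and no more, and p-values therefore cover only the spread between those samples, which may be technical.

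Steroid hormones are made from cholesterol. The StAR protein, encoded by star, moves cholesterol into the mitochondrion, and tspo encodes a cholesterol-binding protein of the outer mitochondrial membrane. The side-chain cleavage enzyme, for which cyp11a1 genes are named, turns cholesterol into pregnenolone, the 17-hydroxylase/lyase encoded by cyp17a1 leads on to androgens, and aromatase, encoded by cyp19a1a, turns androgens into estrogens. In fish follicles the early steps lie mainly in theca cells and aromatase in granulosa cells, and both cell types are a small part of an ovary filled with large oocytes. The hsd17b12 enzymes are best known as the 3-ketoacyl-CoA reductases of very long chain fatty acid elongation, and in mammals the enzyme has also been reported to reduce estrone to estradiol.

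Reads assigned to genes numbered 7152581 to 10198881 per surface fish library and 5949155 to 7973058 per Tinaja library. Levels are given as reads and as CPM, the counts per library scaled to a common total with edgeR's TMM (trimmed mean of M values) factors. A level of 3 reads, taken here as the floor of detection, equals 0.323 to 0.411 CPM in the surface fish libraries and 0.372 to 0.492 CPM in those of Tinaja cavefish. Surface control 1 stood apart from the other 2 controls in markers of macrophages. Its macrophage marker sum (3 entries) was 102 CPM against 17.0 and 19.3 CPM, and the macrophage receptor gene csf1ra had 735 reads there against 98 and 100, so results that involve control surface fish are also given without it where they move. As for the tissue label, the oocyte markers (11 entries) had a summed level of 5040 to 7980 CPM in the 12 libraries, while the interrenal and testis markers (5 entries) summed to 0.136 to 2.17 CPM in surface fish and 1.02 to 3.44 CPM in Tinaja cavefish. Of these, cyp11c1 and mc2r had at most 1 read, dmrt1 at most 2, sox9a at most 4 (0 in surface fish) and hsd11b2 at most 23 reads in any library.

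Ovaries of Tinaja cavefish held more reads of star, tspo, cyp11a1.1, cyp17a1 and hsd17b12b than ovaries of surface fish, relative to library size, and fewer reads of hsd17b12a. Among control fish hsd17b12a overlapped between populations and was not called (edgeR adjusted p = 0.0691). Neither cyp11a1.1 (0.146) nor, without the filter on low counts, star (0.136) was called there. For star, cyp11a1.1 and cyp17a1 the gap was wider among starved fish, whose surface libraries held almost no reads of these genes, but the test of that difference called none of them (edgeR adjusted p = 0.199 for cyp11a1.1, 0.236 for cyp17a1 and, without the filter on low counts, 0.479 for star). Of the 6 tested genes cyp17a1 showed the largest difference, 4.96-fold among control fish and 25.3-fold among starved fish. Without surface control 1, hsd17b12b had the largest among control fish (log2 1.96 against 1.85 for cyp17a1). The gene cyp17a1 entered the test through its Tinaja libraries, since no surface group had 10 reads in each library. The cytochrome P450 genes of the pathway, cyp11a1.1, cyp17a1 and cyp19a1a, lay lower in starved than in control surface fish in every library, but none of these differences passed the threshold. For cyp17a1 the nearest libraries held 2 reads each, under the floor, and only the scaling parted them. In Tinaja cavefish the libraries of the feeding states overlapped for every member, and none was called. Aromatase, the last step, was the only member whose levels in all 4 groups overlapped with those of the group next in order, and it passed no test.

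**Figure D1:**
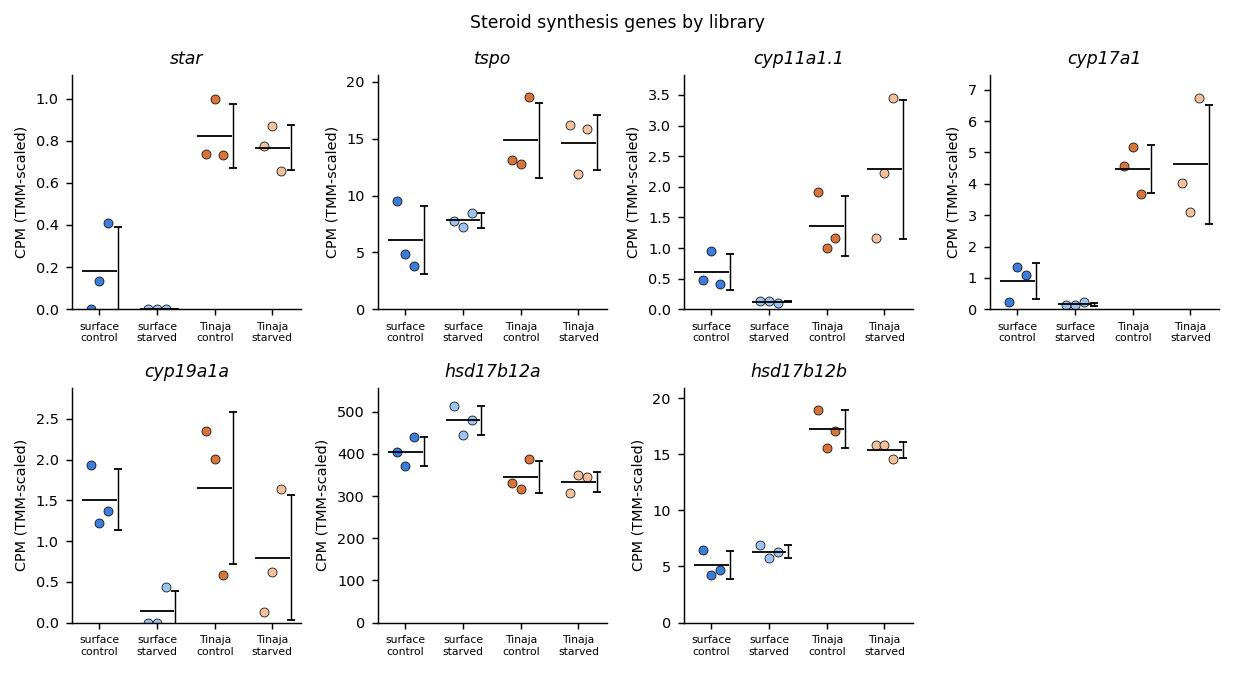
Level of each gene in each of the 12 libraries, as TMM-scaled CPM on a linear axis that starts at 0 and differs between panels. Points are libraries, horizontal bars are group means and brackets are ± 1 SD (n = 3), cut off at 0 where the bracket reaches below it. The Tinaja libraries lie above all surface libraries for star, tspo, cyp11a1.1, cyp17a1 and hsd17b12b.

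The cholesterol carrier gene star (ENSAMXG00000005430) was close to or below the floor. It had 0, 1 and 3 reads in the control surface fish, 0 reads in each of the starved surface fish, 5, 7 and 5 reads in control Tinaja cavefish and 6, 7 and 4 reads in starved Tinaja cavefish. All 6 surface fish libraries were at or under the floor of 3 reads and all 6 Tinaja libraries above it, with no overlap. The level was 0.182 ± 0.210 CPM in control surface fish, 0.824 ± 0.156 in control and 0.767 ± 0.106 in starved Tinaja cavefish (SD, n = 3 each). The populations' means over both feeding states, 0.0912 ± 0.166 and 0.796 ± 0.123 CPM (n = 6 each), differed by 0.704 CPM with p = 0.005 in an exact permutation test, two-sided, with labels permuted within feeding state. That is the smallest p that its 400 arrangements can give. It is not adjusted, and any gene whose populations do not overlap gets it. Of all genes tested, which leave out star, 12.6% had every Tinaja library above every surface library. Among control fish the ratio of summed reads, Tinaja to surface, was 4.74 (95% counting interval 1.55 to 19.3). Among starved fish 17 reads stood against 0, and the 95% counting interval of that ratio starts at 4.55. These intervals cover counting error only. In bulk tissue, fewer cells of a type and less RNA per cell cannot be told apart, here and for every gene below.

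The gene of the outer-membrane cholesterol-binding protein, tspo (ENSAMXG00000002209), was well above the floor. Its level was 9.52, 4.89 and 3.84 CPM in control surface fish (79, 36 and 28 reads), 7.74, 7.23 and 8.51 in starved surface fish, 13.1, 12.8 and 18.7 in control Tinaja cavefish and 16.2, 11.9 and 15.9 in starved Tinaja cavefish. Every Tinaja library lay above every surface fish library, and surface control 1 was the highest of the surface fish. The edgeR quasi-likelihood test gave a log2 difference, Tinaja over surface fish, of 1.28 ± 0.299 (SE; adjusted p = 0.00646) among control fish and 0.90 ± 0.293 (adjusted p = 0.0278) among starved fish. Without surface control 1, the library with the high macrophage markers, the log2 difference among control fish was 1.77 (adjusted p = 0.000532 by the same test). Among starved fish the call was lost when any surface starved library, or Tinaja starved 1 or 3, was left out, with adjusted p-values of 0.0529 to 0.0798 and log2 differences of 0.82 to 0.97. Neither population showed a called starvation response, with log2 differences of 0.36 ± 0.302 (edgeR adjusted p = 0.527) in surface fish, or 0.84 (0.0846) without surface control 1, and -0.02 in Tinaja cavefish. In the AstMex3_surface RefSeq table, tspo overlaps another gene, LOC103031109, and reads of the overlap cannot be told apart, since the strand setting of the authors' counting was not given in the sources used here.

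The first enzyme of the pathway was read at low numbers. The side-chain cleavage gene cyp11a1.1 (ENSAMXG00000033573) had 4, 7 and 3 reads in control surface fish, 1 read in each starved surface fish, 13, 7 and 8 reads in control Tinaja cavefish and 9, 18 and 21 reads in starved Tinaja cavefish. As CPM these were 0.482, 0.950 and 0.411, then 0.136, 0.134 and 0.108, then 1.91, 1.00 and 1.17, then 1.17, 2.23 and 3.45. The starved surface fish were lowest, all under the floor. The control surface fish came next with control 3 at the floor, and the Tinaja groups, which overlapped each other, lay above all surface libraries. The nearest libraries, surface control 2 and Tinaja control 2, held 7 reads each and were parted only by the scaling. Among starved fish cyp11a1.1 was 16.1-fold higher in Tinaja cavefish (log2 4.01 ± 0.679 SE, adjusted p = 0.000713 in edgeR's quasi-likelihood test). Since the starved surface fish held 3 reads in all, the ratio of reads, 17.6, has a counting interval of 5.68 to 88.5. Among control fish the log2 difference was 1.13 ± 0.568 (adjusted p = 0.146) and did not pass, although the groups did not overlap. Starved surface fish differed from control surface fish by log2 -2.15 ± 0.752 (adjusted p = 0.115), on 3 against 14 reads. In Tinaja cavefish that difference was 0.72 ± 0.513 (adjusted p = 1), and the test of one response against the other, log2 2.88 ± 0.910 (adjusted p = 0.199), was not called either.

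The 17-hydroxylase/lyase gene cyp17a1 (ENSAMXG00000012029), the branch point toward androgens, had the largest population difference of the 6 tested members with all libraries in the fit. It had 2, 10 and 8 reads in control surface fish, 1, 1 and 2 in starved surface fish, 31, 36 and 25 in control Tinaja cavefish and 31, 25 and 41 in starved Tinaja cavefish. Its level was 0.241, 1.36 and 1.1 CPM in control surface fish and 0.136, 0.134 and 0.215 CPM in the starved ones, and 4.56, 5.17 and 3.66 CPM in control and 4.02, 3.10 and 6.73 CPM in starved Tinaja cavefish. The Tinaja libraries all lay above the surface libraries, the starved surface fish all lay under the floor, and surface control 1 was under it too. By edgeR's quasi-likelihood test, cyp17a1 was higher in Tinaja cavefish by log2 2.31 ± 0.519 (SE; adjusted p = 0.00516) among control fish and by log2 4.66 ± 0.640 (adjusted p = 0.000173) among starved fish. With 97 reads in starved Tinaja cavefish against 4 in starved surface fish, the ratio of 26.7 has a counting interval of 10.1 to 100. Without surface control 1 the log2 difference among control fish was 1.85 (edgeR adjusted p = 0.0119), below the 1.96 of hsd17b12b.

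Between feeding states, cyp17a1 averaged 0.898 ± 0.584 CPM in control surface fish and 0.162 ± 0.0465 in the starved ones (SD, n = 3 each). This log2 difference of -2.31 ± 0.706 (SE) had an edgeR adjusted p of 0.0802. Surface control 1, the library with the high macrophage markers, had the fewest cyp17a1 reads of the 3 controls. Without it the log2 difference was -2.77 (edgeR adjusted p = 0.0318), which passes the threshold, and the part of those markers in the result was not tested. In Tinaja cavefish the starved fish, at 4.61 ± 1.89 CPM, were level with the controls at 4.46 ± 0.757, with a log2 difference of 0.04 and a 95% interval of -0.96 to 1.04. The difference between the populations' starvation responses was log2 2.35 ± 0.843 (edgeR adjusted p = 0.236) and was not called.

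The aromatase gene cyp19a1a (ENSAMXG00000042616) had another pattern over the groups. It had 16, 9 and 10 reads in control surface fish, 0, 0 and 4 in starved surface fish, 16, 14 and 4 in control Tinaja cavefish and 1, 5 and 10 in starved Tinaja cavefish. Its level was 1.93, 1.22 and 1.37 CPM in control surface fish, 0, 0 and 0.431 in starved surface fish, 2.35, 2.01 and 0.586 in control Tinaja cavefish and 0.130, 0.620 and 1.64 in starved Tinaja cavefish. Control fish of the populations overlapped. Starved surface fish lay below control surface fish in every library, and starved Tinaja cavefish spread over 1 to 10 reads.

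No comparison called cyp19a1a. Among control fish the populations differed by log2 0.12 ± 0.799 (SE; edgeR adjusted p = 0.922), with a 95% interval of -1.61 to 1.86 that leaves room for a difference in either direction. Starved surface fish differed from control surface fish by log2 -3.11 ± 1.03 (edgeR adjusted p = 0.101), and by -6.48 (adjusted p = 0.101) without surface starved 3. On the summed reads of surface fish, 35 against 4, the control level was 9.19 times the starved level (counting interval 3.29 to 35.6). For Tinaja cavefish, on 34 against 16 reads, it was 2.26 times the starved level (1.21 to 4.38). These intervals leave out the spread between libraries. In Tinaja cavefish the log2 difference between starved and control was -1.09 ± 0.858 (edgeR adjusted p = 1). Among starved fish the difference between populations also moved with surface starved 3. It was log2 2.14 ± 1.1 (edgeR adjusted p = 0.139) with all libraries and 5.51 (adjusted p = 0.0386) without it, since it held the 4 reads of its group, so that the latter value sets Tinaja cavefish against 2 libraries with no read.

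A second aromatase entry of the table, CYP19A1 (ENSAMXG00000016747), had at most 2 reads in any library and was not tested. The reads of cyp17a1 per read of cyp19a1a, a ratio chosen after the values were seen, were 0.571 in control surface fish (95% counting interval 0.313 to 1.02) and 2.71 in control Tinaja cavefish (1.81 to 4.14). Among starved fish the ratio was 1.00 in surface fish, on 4 reads of each gene (0.186 to 5.37), and 6.06 in Tinaja cavefish (3.55 to 11). Surface control 1 held 2 reads of cyp17a1 against 16 of cyp19a1a, while surface controls 2 and 3 held 10 against 9 and 8 against 10. The ratio of control surface fish was thus lowered by surface control 1. Starved Tinaja cavefish held 31 against 1, 25 against 5 and 41 against 10. The intervals leave out this spread between libraries. The ratio is not corrected for the genes' lengths, so its size says nothing about which gene had more transcripts.

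**Figure D2:**
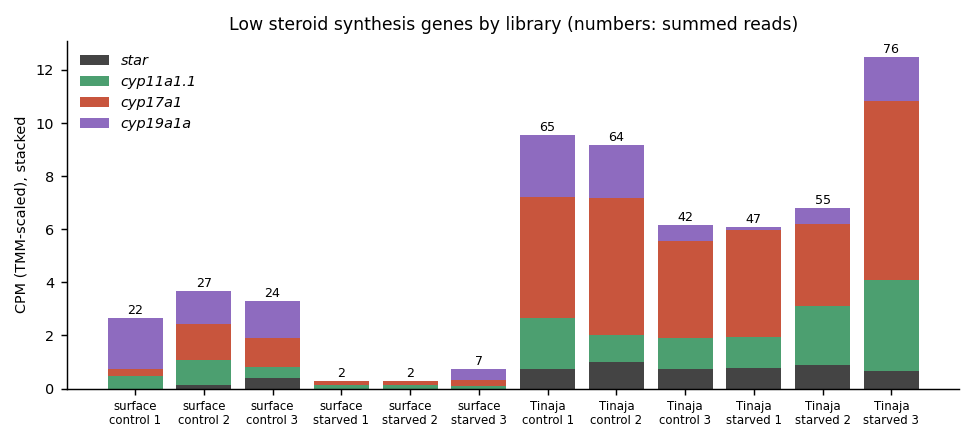
Stacked level, as TMM-scaled CPM, of the 4 low genes star, cyp11a1.1, cyp17a1 and cyp19a1a in each library, with the summed reads above each bar. The starved surface fish hold 2, 2 and 7 reads, the control surface fish 22 to 27 and the Tinaja libraries 42 to 76.

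Taken as a sum, star, cyp11a1.1, cyp17a1 and cyp19a1a had 22, 27 and 24 reads in control surface fish and 2, 2 and 7 in starved surface fish. Control Tinaja cavefish had 65, 64 and 42 reads and starved Tinaja cavefish 47, 55 and 76. The starved surface fish had the fewest reads although their libraries were not the shallowest, and the 2 Tinaja groups overlapped. As levels, the sums were 3.2 ± 0.511 CPM in control surface fish and 0.431 ± 0.280 in the starved ones, and 8.30 ± 1.87 in control and 8.46 ± 3.49 in starved Tinaja cavefish (SD, n = 3 each).

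The sum of the granulosa cell markers was also lowest in starved surface fish and highest in the Tinaja groups. The granulosa marker list, with cyp19a1a left out (13 entries, 7 of them tested), summed to 14.3 to 15.8 CPM in control surface fish, 6.69 to 7.88 in starved surface fish, 21.8 to 36.4 in control Tinaja cavefish and 20.6 to 34.8 in starved Tinaja cavefish. By group means fshr, lhcgr, foxl2b, inha, inhbb, inhbaa and igf3 were lowest in starved surface fish and highest in the Tinaja groups. Of these, foxl2b, inhbb and inhbaa had at most 13 reads in any library. The largest part of the sum in the Tinaja groups was lhcgr, at 13.1 and 14.7 CPM. Other entries did not follow that order. gsdf was level at 1.57 to 1.87 CPM, amh was lowest in control surface fish, and fsta was highest in starved surface fish (0.837 CPM). fstb and the entry INHBB, on few reads, did not follow it either. foxl2a, a defining granulosa gene, had no read in Tinaja cavefish and 2 reads in each surface fish group. The 4 entries of the theca and steroid cell list that are not among the 7 genes (nr5a1a, hsd3b2, nr5a1b and cyp11c1) summed to 2.17 to 4.93 CPM in control surface fish and 1.40 to 3.75 CPM in the starved ones, and to 5.71 to 7.80 and 4.22 to 11 CPM in control and starved Tinaja cavefish. Of these, cyp11c1 had at most 1 read in any library. nr5a1b went the other way, at 0.683 and 0.83 CPM in control and starved surface fish against 0 and 0.0432 in Tinaja cavefish. Its highest level, 2.28 CPM in a starved surface library, made the larger part of the sum of 3.75 CPM there. hsd3b2 is itself a steroid enzyme gene. In starved against control surface fish 1 of the 7 tested granulosa entries was lower (lhcgr, a call lost in 9 of 12 alternative fits) and none higher, against 1.45% of all genes lower, and the sum of oocyte markers was 6950 to 7980 CPM against 5110 to 5870.

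Set against the granulosa markers, the sum of the 4 low steroid genes was lowest in starved surface fish. The ratio of the 2 sums was 0.168 to 0.250 in control surface fish and 0.0345 to 0.103 in starved surface fish, without overlap. It was 0.252 to 0.307 in control and 0.175 to 0.376 in starved Tinaja cavefish, and the latter overlapped with control surface fish. Among control fish every Tinaja library lay above every surface library in this ratio, narrowly at the nearest (0.252 against 0.250). The means were 0.216 in surface fish and 0.280 in Tinaja cavefish. The ratio rests on as few as 2 reads in a library, and the part of the number of follicle cells in the levels of the steroid genes was not tested.

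The hsd17b12 paralogs differed from each other in the direction of the population difference. hsd17b12a (ENSAMXG00000013705) had 2100 to 4455 reads per library. Its level was 405, 372 and 440 CPM in control surface fish, 515, 446 and 480 in starved surface fish, 332, 317 and 388 in control Tinaja cavefish and 307, 351 and 345 in starved Tinaja cavefish. The starved surface fish lay above all other libraries, and control fish of the populations overlapped. By edgeR's quasi-likelihood test, hsd17b12a was lower in Tinaja cavefish among starved fish by log2 -0.52 ± 0.0915 (SE; adjusted p = 0.000866), a 1.44-fold difference. Among control fish it differed by log2 -0.23 ± 0.0915 (edgeR adjusted p = 0.0691). Without Tinaja control 3, the highest of its group, that value was -0.32 (adjusted p = 0.0199), and it also passed without the filter on low counts (-0.26, adjusted p = 0.048). Starved and control surface fish differed by log2 0.24 ± 0.0911 (edgeR adjusted p = 0.137), and starved and control Tinaja cavefish by -0.05 with a 95% interval of -0.25 to 0.15. The difference between these responses was -0.29 ± 0.129 (edgeR adjusted p = 0.31).

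hsd17b12b (ENSAMXG00000035058), the paralog, went the other way between the populations. It had 54, 31 and 34 reads in control surface fish, 51, 43 and 58 in starved surface fish, 129, 109 and 117 in control Tinaja cavefish and 122, 127 and 89 in starved Tinaja cavefish. Its level was 5.13 ± 1.22 CPM in control surface fish and 6.31 ± 0.587 in the starved ones, and 17.2 ± 1.67 in control and 15.4 ± 0.679 in starved Tinaja cavefish (SD, n = 3 each). Every Tinaja library lay above every surface library, and within each population the feeding states overlapped. The edgeR quasi-likelihood test gave a higher level in Tinaja cavefish by log2 1.74 ± 0.192 (SE; adjusted p = 4.03e-05) among control fish and 1.28 ± 0.188 (adjusted p = 0.000265) among starved fish. Neither starvation response was called (log2 0.29, adjusted p = 0.404, and -0.16, adjusted p = 1).

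Of the reads of both paralogs, hsd17b12b took 1.58%, 1.12% and 1.05% in control surface fish and 1.33%, 1.27% and 1.29% in starved surface fish. In Tinaja cavefish it took 5.41%, 4.71% and 4.23% in controls and 4.90%, 4.30% and 4.07% in starved fish. The Tinaja shares all lay above the surface shares, and within each population the shares of the feeding states overlapped. The share of hsd17b12a was 98.7 ± 0.186% in surface fish against 95.4 ± 0.503% in Tinaja cavefish (SD, n = 6 each), a difference of -3.33 percentage points (exact permutation test within feeding state, two-sided, p = 0.005, the smallest it can give). Multimapping reads stand in an entry of their own (9.91% to 16.8% of reads), so those that map equally to both paralogs are in neither count. The share is that of the remaining reads as the authors assigned them.

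**Figure D3:**
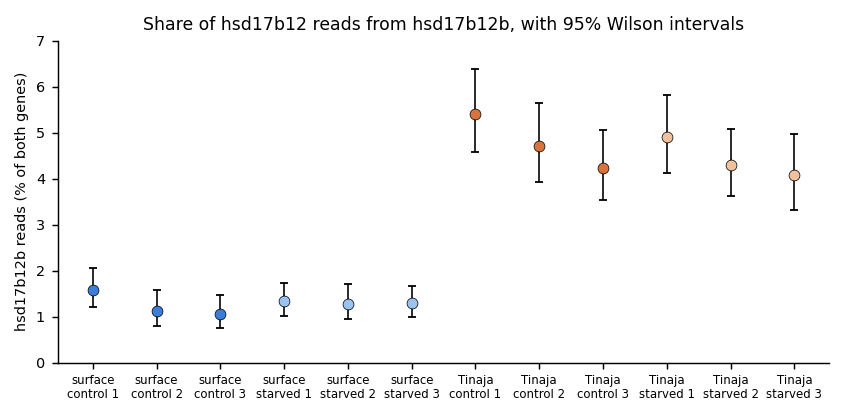
Share of the reads of hsd17b12a and hsd17b12b that belonged to hsd17b12b, in percent, in each library. Points are libraries and bars are 95% Wilson intervals, which cover counting error only. The surface libraries lie at 1.05% to 1.58% and the Tinaja libraries at 4.07% to 5.41%.

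Counted over the members, the comparison of control fish between populations called 3 of the 6 tested genes higher in Tinaja cavefish (cyp17a1, hsd17b12b and tspo) and 0 lower. The background is high, since 32.4% of all genes tested were called in that comparison, and 16% of all genes tested were called higher in Tinaja cavefish. Among starved fish 4 were higher (the same 3 and cyp11a1.1) and 1 was lower (hsd17b12a), against 40.3% of all genes called, 20.3% higher and 20% lower. On the mean of both feeding states the same 4 were higher and hsd17b12a lower, against 51% called, 25.7% higher and 25.3% lower. On that mean, edgeR gave a log2 difference of 3.49 ± 0.414 (SE; adjusted p = 2.58e-05) for cyp17a1, 2.57 ± 0.447 (0.000476) for cyp11a1.1, 1.51 ± 0.134 (2.49e-06) for hsd17b12b, 1.09 ± 0.209 (0.000957) for tspo, 1.13 ± 0.679 (0.182) for cyp19a1a and -0.38 ± 0.0647 (0.000419) for hsd17b12a. For cyp19a1a it was 2.82 (edgeR adjusted p = 0.0379) without surface starved 3, which held all 4 reads of its group. The comparisons within one feeding state and their mean share libraries. Both cyp17a1 and cyp11a1.1 entered the test through their Tinaja libraries, since no surface group had 10 reads in each of its 3 libraries. Their calls are therefore no support beside the share over all genes.

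Starvation called none of the 6 tested members in surface fish, in Tinaja cavefish or in the difference between the 2 responses, by edgeR's quasi-likelihood test and by DESeq2. DESeq2 gave no adjusted p for 3 of its 36 member values over all comparisons, and such values were counted as not called. At an unadjusted p under 0.05 in the edgeR test, 4, 0 and 3 members passed in surface fish, Tinaja cavefish and the difference. Of all 14627 genes 3296, 578 and 2264 passed. At the adjusted threshold the test called 3.19% of all genes in surface fish (1.74% higher and 1.45% lower), 0.0205% in Tinaja cavefish (0.00684% higher and 0.0137% lower) and 0.0684% for the difference. The 4 members at an unadjusted p under 0.05 in surface fish were cyp17a1, cyp19a1a and cyp11a1.1, lower in starved fish, and hsd17b12a, higher. The same 4 were those whose starved and control libraries did not overlap, while 28.5% of all genes tested did not overlap in that comparison, 14.8% lower and 13.7% higher. For cyp17a1 this rests on scaling alone, as surface control 1 and surface starved 3 held 2 reads each. In Tinaja cavefish all 7 members overlapped between feeding states, where 8.62% of all genes tested did not (4.69% higher and 3.93% lower).

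Between populations 5 members, cyp17a1, cyp11a1.1, hsd17b12b, star and tspo, had every Tinaja library above every surface library over both feeding states. Of all genes tested, which leave out star, 12.6% showed that pattern. For cyp11a1.1 the nearest libraries held 7 reads each and were parted only by the scaling, and for star they held 3 and 4 reads. Among control fish the same 5 members did not overlap (23.2% of all genes, higher), and among starved fish these 5 and, in the lower direction, hsd17b12a (52.5% of all genes, 26.6% higher and 26% lower). Since cyp17a1 and cyp11a1.1 entered the test through their Tinaja libraries and star did not enter it, their non-overlap is no support beside these shares.

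**Figure D4:**
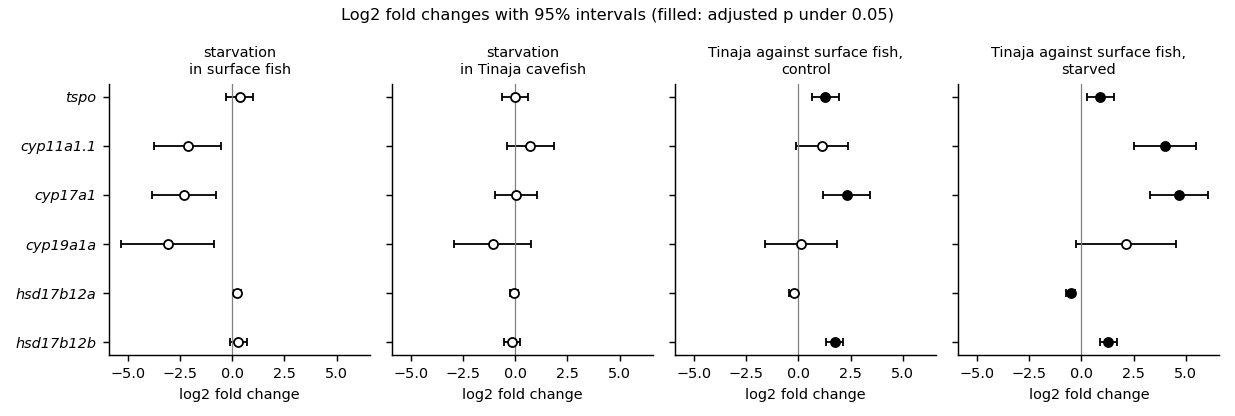
Log2 fold changes of the 6 tested genes with 95% intervals in 4 comparisons, from the edgeR quasi-likelihood fit. Filled points have an adjusted p under 0.05; no starvation value is filled, and cyp17a1, hsd17b12b and tspo are filled in both comparisons of Tinaja cavefish with surface fish.

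Other enzymes of steroid synthesis were taken from a list of 23 symbols, of which 16 are in the table and 9 were tested. Starvation called none of the 9 in either population, with a median log2 difference of -0.69 in surface fish and -0.07 in Tinaja cavefish against -0.01 and 0 over all genes. On the mean of both feeding states 5 were higher and 1 lower in Tinaja cavefish, against 25.7% and 25.3% of all genes, with a median of 0.78. The 3-beta-hydroxysteroid dehydrogenase gene hsd3b2, which makes the step after side-chain cleavage, was 0.752 ± 0.242 CPM in control surface fish and 0.207 ± 0.0692 in the starved ones, and 1.55 ± 0.584 and 2.35 ± 1.15 in control and starved Tinaja cavefish. Its populations differed by log2 2.21 ± 0.416 (edgeR adjusted p = 0.000827), on 5 reads in all in the starved surface fish. No surface library had 10 reads of hsd3b2, so it entered the test through its Tinaja libraries. Its call is therefore no support beside the share over all genes. The steroid 5-alpha-reductase gene srd5a1 was higher by 0.99 (0.0016) and hsd17b7, whose enzyme acts in estradiol and cholesterol synthesis, by 0.78 (0.0208), lost in 2 of 17 alternative fits. The cortisol-inactivating hsd11b2 was higher by 1.48 (0.0312) and cyp17a2, a paralog of cyp17a1 with hydroxylase activity, by 1.34 (0.0358), calls that 6 and 10 of 17 alternative fits did not keep. No surface group had 10 reads of hsd11b2 in each library, so it too entered the test through its Tinaja libraries, and its call is no support either. hsd17b8, whose enzyme is known from steroid oxidation and mitochondrial fatty acid synthesis in mammals, was lower, at 11.8 ± 0.631 and 9.66 ± 0.509 CPM in control and starved surface fish and 4.84 ± 1.70 and 4.89 ± 3.46 in Tinaja cavefish (log2 -1.13, adjusted p = 0.00786).

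Genes of cholesterol delivery and of electron supply to the mitochondrial enzymes did not shift together. Of 18 entries 16 were tested, starvation called none, and between populations 2 were higher and 3 lower on the mean of both feeding states, with a median log2 difference of -0.01. In that comparison 51% of all genes were called. The receptor gene scarb1, through which cells take up cholesterol from high-density lipoprotein, was lower in Tinaja cavefish, at 121 ± 14.4 and 111 ± 9.91 CPM against 203 ± 45.3 and 190 ± 46.7 CPM (log2 -0.76, edgeR adjusted p = 0.000941). The cholesterol-esterifying soat2 was lower by -2.27 (0.00177). No Tinaja group had 10 reads of soat2 in each library, so it entered the test through its surface libraries. Its call is therefore no support beside the share over all genes. The porin genes of the outer mitochondrial membrane split, as one entry named VDAC2 was higher by 0.85 (6.88e-05) and another named vdac2 was lower by -0.17 (0.0263), while vdac1 was higher in the comparison of control fish (0.32, 0.0439). The call of vdac2 was lost in 7 of 17 alternative fits and that of vdac1 in 6 of 12. acbd3, an acyl-CoA binding protein that binds TSPO in mammals, was higher by 0.39 (0.00149).

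Among regulators of the steroid genes, 8 of 19 entries were tested and starvation called none. On the mean of both feeding states 3 were higher and 2 lower in Tinaja cavefish, with a median of 0.31, and 5 of 8 is near the 51% called over all genes. nr5a1a, an ortholog of the factor SF-1 that activates steroid genes, was 2.20 ± 0.612 and 1.23 ± 0.329 CPM in control and starved surface fish and 5.44 ± 0.544 and 5.74 ± 2.51 in Tinaja cavefish (log2 1.76, edgeR adjusted p = 0.000322). Its paralog nr5a1b, which was not tested, had 15 and 19 reads in control and starved surface fish and 0 and 1 in Tinaja cavefish. These surface reads were spread unevenly, at 0 to 9 per control library and 0 to 17 per starved library. foxl2b, of the ovarian FOXL2 factors that activate aromatase, was higher by 1.49 (0.00402) and wt1a by 1.38 (0.00947). No surface library had 10 reads of foxl2b, so it entered the test through its Tinaja libraries. Its call is therefore no support beside the share over all genes. The paralog wt1b went the other way and was not called (-0.50, edgeR adjusted p = 0.0748). It was at 5.81 and 5.66 CPM in control and starved surface fish against 4.16 and 3.93 in Tinaja cavefish. CREB3L4 was lower by -0.30 (0.0113) and nr5a2 by -0.44 (0.0347), a call that 9 of 17 alternative fits did not keep, and among starved fish gata6 was higher by 1.62 (0.0135).

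Of the steroid receptors, 7 of 12 tested entries were higher and 2 lower in Tinaja cavefish on the mean of both feeding states, where 25.7% of all genes were higher and 25.3% lower, and the median log2 difference was 0.83. The estrogen receptor genes esr2a and esr1 were higher by 2.14 (edgeR adjusted p = 0.000246) and 1.63 (0.0124), and the membrane estrogen receptor gene gper1 by 2.07 (0.00619), or 2.75 without surface starved 3. The progesterone receptor gene pgr was higher by 1.27 (0.00148), and the membrane progesterone-binding pgrmc2 and pgrmc1 by 0.33 (0.0014) and 0.21 (0.0251), the latter lost in 5 of 17 alternative fits. Among starved fish the glucocorticoid receptor entry NR3C1 was higher by 1.64 (0.0218), a call lost in 3 of 12. Another entry, nr3c1, had more reads and was not called there (0.18, edgeR adjusted p = 0.58). In starved surface and Tinaja fish its level was 8.14 and 9.25 CPM, against 1.14 and 3.59 CPM for NR3C1. Lower were the mineralocorticoid receptor gene nr3c2, at 6.37 ± 1.54 and 6.25 ± 1.53 CPM in control and starved surface fish against 0.391 ± 0.339 and 0.694 ± 0.157 in Tinaja cavefish (-3.57, 1.45e-05), and the membrane progestin receptor gene paqr7a (-2.02, 0.000359). No surface group had 10 reads of esr1, esr2a or gper1 in each library, so these entered the test through their Tinaja libraries. nr3c2 and paqr7a, with at most 6 and 8 reads in any Tinaja library, entered it through their surface libraries. The calls of these receptor genes are therefore no support beside the shares over all genes.

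Gonadotropins drive the steroid genes of the follicle through the receptors of fshr and lhcgr. lhcgr was 4.85 ± 0.654 and 1.34 ± 0.864 CPM in control and starved surface fish and 13.1 ± 2.64 and 14.7 ± 6.62 in Tinaja cavefish, a log2 difference between populations of 2.45 (edgeR adjusted p = 3.69e-05). fshr was 2.15 ± 0.459, 1.23 ± 0.375, 3.30 ± 1.72 and 2.47 ± 1.03 CPM in the same order and was not called (0.80, adjusted p = 0.0793). With starvation in surface fish, lhcgr and pgr were lower by -1.87 (edgeR adjusted p = 0.0491) and -1.56 (0.0488), 2 calls at the edge of the threshold that 9 and 10 of 12 alternative fits did not keep.

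Because hsd17b12 enzymes also serve fatty acid elongation, the other genes of that cycle were listed. Of 14 entries 11 were tested. On the mean of both feeding states 4 were higher and 4 lower in Tinaja cavefish, where 51% of all genes were called, with a median of 0.03. The elongase gene elovl4a was 39.1 ± 19 and 60.8 ± 10.8 CPM in control and starved surface fish and 5.44 ± 0.789 and 6.66 ± 1.14 in Tinaja cavefish (log2 -3.02, edgeR adjusted p = 1.04e-06). elovl4b, elovl1b and the dehydratase gene hacd1 were lower by -2.46 (0.00652), -0.51 (0.000491) and -0.61 (0.000146), with elovl4b at -3.19 without Tinaja control 1. elovl2 was higher by 3.96 (0.000118), from 2 reads in each surface group to 21 and 54 reads in control and starved Tinaja cavefish. It entered the test through its Tinaja libraries. elovl4b, with no Tinaja group at 10 reads in each library, entered it through its surface libraries. The calls of elovl2 and elovl4b are therefore no support beside the share over all genes. elovl6 and elovl5 were each higher by 0.49 (6.19e-05 and 0.00121), and the reductase gene tecrb by 0.22 (0.0454), a call 11 of 17 alternative fits did not keep. Starvation in surface fish called elovl1a, higher by 0.30 (0.0414), which 8 of 12 alternative fits did not keep. The listed symbols hsd3b1, cyp19a1b, fdx1b, fdxr and tecra matched no entry and were not analysed here.

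**Figure D5:**
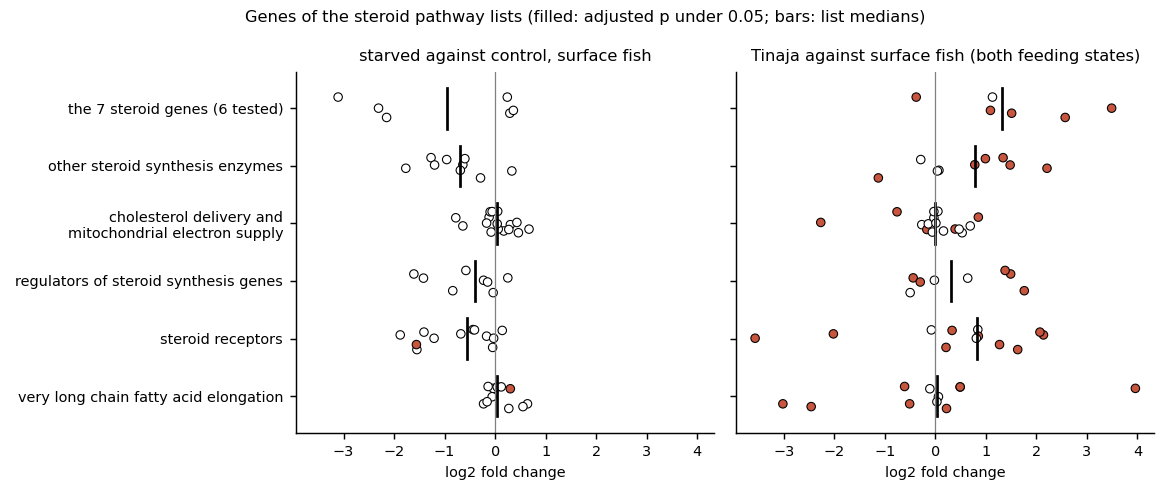
Log2 fold changes of the tested genes of each list, for starvation in surface fish and for Tinaja against surface fish on the mean of both feeding states. Points are genes, filled where the adjusted p is under 0.05, and black bars are list medians. For starvation the medians lie between -0.95 and 0.05, and 2 points are filled; between populations filled points lie on both sides of 0.

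The genes with the profile most like each tested member were found over the 12 libraries by the root mean square difference of centred log2 CPM, among 11255 genes with a symbol and at least 1 CPM on average. Nearest to cyp11a1.1 were dclk1b (0.369), atp1b1a (0.377) and then the next enzyme of the pathway, hsd3b2 (0.406). Nearest to cyp17a1 were lmo2 (0.470), GALNT17 (0.472) and cyp4t8 (0.494), and to cyp19a1a bcar3 (0.516), TMEM26 (0.644) and ARHGAP42 (0.663). hsd17b12a had close neighbours in dynll2b (0.0873), ppid (0.0886) and the succinate dehydrogenase subunit gene sdha (0.0906). hsd17b12b was nearest to CDH2 (0.162), ADGRL3 (0.173) and mthfd1l (0.198), and tspo to the clock repressor gene nr1d2b (0.199), gcdhb (0.239) and gstt1b (0.244). The distance grows with a gene's own variation and its counting noise, so it is not compared between members.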

How the data were processed

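Per the labels' protocols, directional libraries were made from ovary RNA after ribosomal RNA depletion, from input amounts that varied. The authors deposited raw counts, whole reads per gene and library. STAR 2.7.10b and RSEM are named in the submitters' processing notes. The genome build, annotation and strand setting were not given in the sources used here. The 4 entries that name no gene (unmapped 7.28% to 10.1%, multimapping 9.91% to 16.8%, no feature 14.1% to 17.9% and ambiguous 0.276% to 0.368% of reads) were left out. The deposited scaled table was not used.

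The counts of the 12 libraries in 4 groups were fitted in edgeR 4.0.16 (R 4.3.3) after filterByExpr with a minimum count of 10. The robust quasi-likelihood fit used TMM factors (8 residual degrees of freedom, biological coefficient of variation 0.191). P-values were adjusted by Benjamini-Hochberg over 14627 genes, with an adjusted p under 0.05 called. Among the 6 comparisons, Tinaja minus surface fish was also taken as the mean of both feeding states. The standard error (SE) is approximate, the size of a log2 value over the root of its F. Ratios of summed reads have exact conditional 95% intervals, and shares Wilson intervals; both cover counting error only. The code of the fit was also run on simulated counts, with the outcome not given here. Alternatives were upper-quartile factors, DESeq2 1.42.0, no filter, voom with limma 3.58.1, the replicate number as a block, only the groups compared, and each library left out in turn. Numbers after log2 values in the lists are log2 differences and adjusted p-values of the edgeR test.

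The members and lists were chosen with earlier results of these data known. Named are all 7 members, every called gene of the 5 pathway lists (the 6 of smallest adjusted p per list and comparison) except 1 that is not reported here, 14 preset symbols, and the 3 genes nearest in profile to each member. The called list genes esr1, NR3C1, pgrmc1 and elovl4b and the entries CYP19A1, nr3c1 and wt1b were added after their values were seen. Symbols come from the count table, which names 16752 of its genes and leaves 10668 unnamed. RefSeq (AstMex3_surface) matched 4 of the 7 members and was used for neighbours only.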

Additional observations from a re-analysis of the deposited data

How the results depend on the processing

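Of 483 member values under the alternatives, 461 kept their direction and side of the threshold, 5 lost and 5 gained a call, and 12 changed sign, none of them a called value. For the starvation response in Tinaja cavefish, cyp17a1 (log2 0.04) was -0.07 with voom and 0.00 with the replicate block, and with 1 library left out it ranged from -0.33 to 0.26, hsd17b12a from -0.11 to 0.04 and tspo from -0.12 to 0.18. The difference of cyp19a1a between control populations (0.12) was -0.06 with voom and -0.22 to 0.52 with 1 library left out. The calls over all genes for starvation were less stable. In surface fish (466 genes) they were 1262 with DESeq2, 141 with only the compared groups and 26 to 526 with 1 library left out (30 without control 2, 26 without control 3, 144, 172 and 82 without starved 1, 2 and 3). In Tinaja cavefish (3 genes) they were 18 with DESeq2, 1 with voom, 0 with only the compared groups and 3 to 32 with 1 library left out (19 and 5 without control 1 and 2, 32 and 5 without starved 1 and 3). For the difference (10 genes) they were 261 with DESeq2 and 8 to 52 with 1 library left out (52 without surface control 1, 16, 16 and 22 without surface starved 1, 2 and 3, 26 without Tinaja control 1 and 21 without Tinaja starved 1). Members called for starvation in surface fish were 0 to 1 with 1 library left out; the 1 was cyp17a1 without surface control 1. The causes were not tested. DESeq2 gave no adjusted p for 3 of 36 member values. For the 88 calls among the 5 pathway lists, fshr and lhcgr, 170 of 1223 alternative values lost the call and 0 changed sign. The other marker genes were not put through the alternatives.

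Replicate numbers gave no sign of pairing the libraries. Same-number libraries of different groups had correlations of -0.311 to 0.0826, and in 4 of 12 such pairs a library correlated best with its own number. With 3 libraries per group this check cannot exclude a shared block. With the replicate block, surface starvation called 80 genes and the members' counts were unchanged at 0, 0, 0, 3, 5 and 5. Depth limits star, cyp11a1.1, cyp17a1 and cyp19a1a most: star was at or under 3 reads in all 6 surface libraries, and without the filter edgeR gave star a log2 difference of 3.82 ± 0.828 (adjusted p = 0.00163) on the mean of both feeding states, 5.55 (0.00615) among starved and 2.09 (0.136, not called) among control fish.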
